A study of Mus musculus with 6 samples.

Results

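The genes described here encode proteins of the thin filament of the sarcomere and its isoforms: cardiac troponin T (Tnnt2), the slow skeletal and cardiac forms of troponin I (Tnni1 and Tnni3), the troponin C shared by heart and slow skeletal muscle (Tnnc1), alpha- and beta-tropomyosin (Tpm1 and Tpm2), the cardiac, skeletal and smooth muscle alpha-actins (Actc1, Acta1 and Acta2) and leiomodin 2 (Lmod2). They were taken by symbol from a table of 26199 genes, and all 10 were found, with 50 of the table's 60776 transcript rows. Whole hearts of mouse embryos were sequenced at embryonic day 12. The 3 control replicates were Mrps5 fl/fl, in which both alleles of Mrps5, the gene of a protein of the small subunit of the mitochondrial ribosome, carry loxP sites and no Cre is present. The 3 mutant replicates were Mrps5 fl/fl; cTNT-Cre littermates, so that both groups were homozygous for the floxed allele and differed by the Cre transgene, which is driven by a cardiac troponin T promoter and is active in cardiomyocytes and not in the other cells of the heart. Each replicate was a pool of several hearts. The comparison asks how thin filament transcripts stood in hearts with Mrps5 deleted in cardiomyocytes.

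In striated muscle the thin filament is a double strand of actin, along which tropomyosin lies end to end with 1 troponin complex on each tropomyosin. Troponin C binds calcium, troponin I holds the filament in the off state and troponin T anchors the complex to tropomyosin. The embryonic heart uses slow skeletal troponin I before cardiac troponin I replaces it, includes an exon of Tnnt2 that the adult heart skips, and carries skeletal and smooth muscle alpha-actin beside cardiac alpha-actin, so that these genes mark both the amount and the maturity of the contractile apparatus.

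Values are FPKM (fragments per kilobase of transcript, scaled to the mapped fragments of the library), so levels can be compared between genes. Where 3 values are given for a group, they are those of replicates 1, 2 and 3 in that order. Unless a transcript row is named, the FPKM of all rows of a gene were summed. Read numbers are not in the table, so the depth of the libraries in reads is unknown, and no counting interval is given. The summed FPKM of a library ranged from 454692 to 515952. Mrps5 was 9.65, 11.4 and 10.4 FPKM in controls and 5.28, 7.41 and 10.4 FPKM in mutants. The library labelled mutant replicate 3 was thus at the control level for the deleted gene (log2 fold change over all libraries -0.44, limma adjusted p = 0.339; without mutant replicate 3 -0.66, adjusted p = 0.0681; without mutant replicate 1 -0.23), and results are given with that library and, where they turn on it, without it. Markers of red blood cells made up 12.0% to 13.3% of the summed FPKM of control libraries and 23.5%, 10.8% and 22% of mutant replicates 1, 2 and 3. The label heart was borne out by all 12 cardiomyocyte markers, which were at or above 1 FPKM in every library. Their summed level was 6193 to 7380 FPKM in controls and 5178 to 6049 FPKM in mutants, so the groups did not overlap. Of 8 skeletal muscle markers 5 stayed below 1 FPKM in every library, and the highest value of any of them was 2.25 FPKM (Actn3, mutant replicate 3). The myogenic factors Myog and Myod1 were highest in mutant replicate 2, at 2.16 and 1.08 FPKM. In whole hearts, fewer cardiomyocytes and less RNA per cardiomyocyte cannot be told apart.

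All 10 genes had a lower mean in mutant than in control hearts. The ratio of the means ran from 0.661 for Tnnt2 to 0.901 for Actc1, and none of the 10 passed an adjusted p of 0.05 in limma over 13262 genes, of which 0.0829% did. At an unadjusted p under 0.05, 5 of the 10 were lower (Tnnt2, Lmod2, Tpm2, Tnni1 and Tnnc1) and none was higher, where 9.43% of all genes were lower and 5.58% higher. In 6 of the 10, those 5 and Tnni3, every mutant library was below every control library, as in 13% of all genes. At an unadjusted p under 0.05 the number was 3 without mutant replicate 1 (965 lower and 535 higher of 13142 genes tested) and 7 without mutant replicate 3 (1170 lower and 842 higher of 13167 genes). The median log2 fold change on log2(FPKM + 1) was -0.31 for the 10 genes (-0.20 without mutant replicate 1) and -0.02 for all genes tested, and 55% of all genes were below 0. Of the 495 genes with a mean of at least 100 FPKM, which include 7 of the 10, 40.4% were below 0, 10.7% were lower at an unadjusted p under 0.05 and 11.9% were lower without overlap. The cardiomyocyte markers moved alongside: all 12 were below 0, 7 at an unadjusted p under 0.05, with a median of -0.32. When libraries were scaled so that these markers had equal mean log2 levels, the median of the 10 genes was -0.0071 and that of all genes 0.24, 5 of the 10 were below 0 and none had an unadjusted p under 0.05, where 1.39% of all genes were lower and 31.2% higher.

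**Figure D1:**
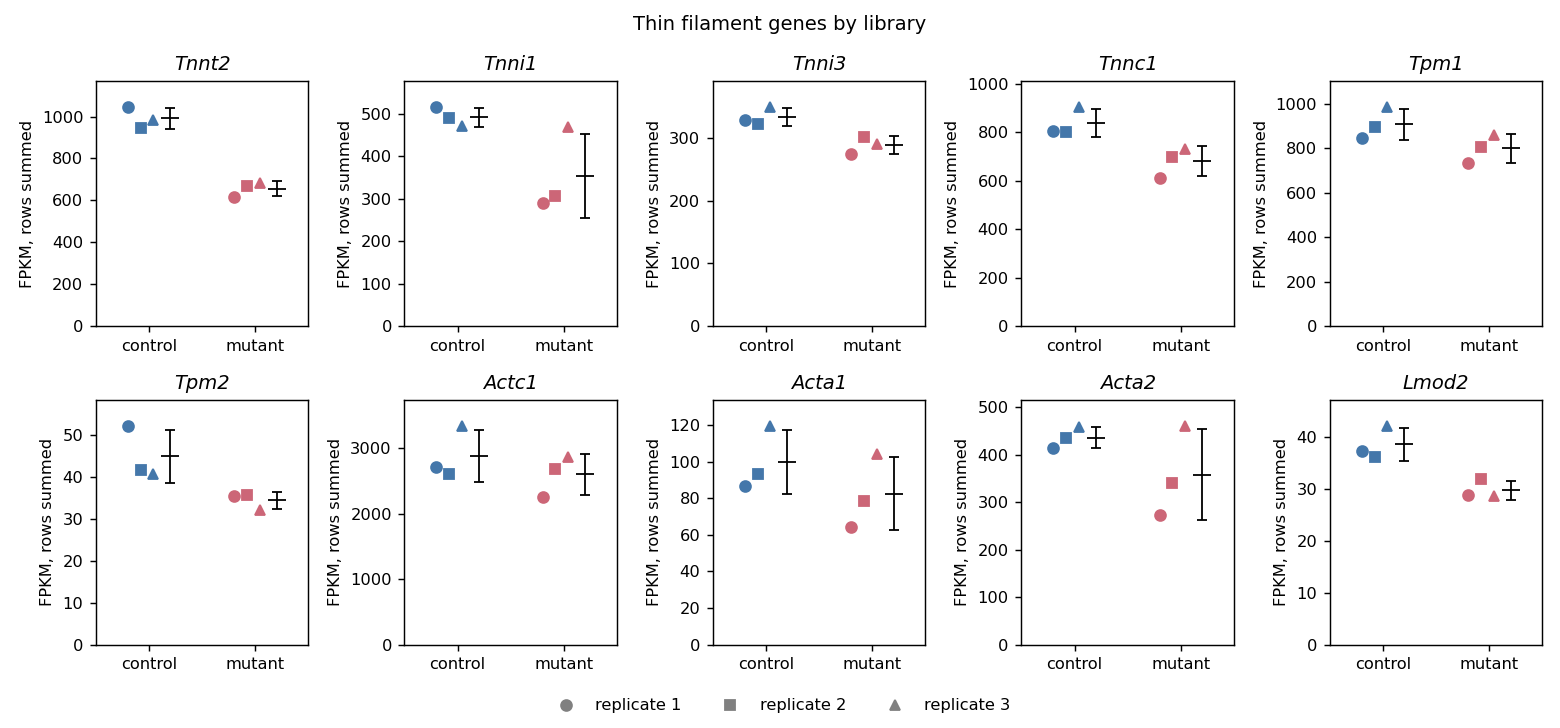
Summed FPKM of the 10 thin filament genes in each of the 3 control (blue) and 3 mutant (red) libraries. Symbols give the replicate number, and the black mark and bar beside them the mean and SD of each group. The groups are apart for Tnnt2, Tnnc1, Tnni3, Tpm2 and Lmod2 and narrowly for Tnni1, whose mutant replicate 3 (468 FPKM) lies next to the controls.

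In control hearts Actc1 was the most abundant of the 10 genes at 2884 FPKM and the 18th most abundant gene of the table. It was followed by Tnnt2 (992 FPKM), Tpm1 (908 FPKM), Tnnc1 (835 FPKM), Tnni1 (492 FPKM), Acta2 (436 FPKM), Tnni3 (334 FPKM), Acta1 (100.03 FPKM), Tpm2 (44.9 FPKM) and Lmod2 (38.5 FPKM). The ranges of the 3 control libraries overlapped between Tnnt2 and Tpm1, between Tpm1 and Tnnc1, and between Tpm2 and Lmod2, so the order within these pairs is not set beyond the spread. The other neighbours did not overlap. In mutant hearts the mean of Tnnt2 stood behind those of Actc1, Tpm1 and Tnnc1.

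Tnnt2 lies on chromosome 1 (chr1:135836354-135852260, plus strand, GRCm38). Its summed FPKM was 1044, 948 and 983 in controls and 617, 667 and 683 in mutants. All 3 mutant libraries were low, mutant replicate 3 included, and none came near a control. The means were 992 ± 48.9 (SD, n = 3) and 656 ± 34.7 (SD, n = 3). On the log2 scale this is a difference of -0.60 with a standard error of 0.11 (limma adjusted p = 0.0954). Over 17 alternatives it stayed below 0, from -3.79 with the most abundant transcript row alone to -0.30 with libraries scaled to the cardiomyocyte markers (limma unadjusted p = 0.0748), where the median of all genes was 0.24. The adjusted p ranged from 0.0528 to 0.537. The Cre transgene, whose promoter is that of cardiac troponin T, was in all mutants and in no control, so that the transgene and the deletion cannot be told apart in this or any other value.

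Of the 50 transcript rows of the 10 genes, 5 were at 0 in every library and 37 passed the filter (at least 1 FPKM in at least 3 libraries). Of these 27 were below 0, against 54.8% of all 20370 rows tested. At an unadjusted p under 0.05, 5 were lower (6.22% of all rows) and 1 was higher (4.02%), and none had an adjusted p under 0.05 (0.0344%).

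The transcript rows of Tnnt2 did not behave like their sum. Of its 12 rows, 2 were at 0 in every library and 9 passed the filter, and 4 held at least 5% of the gene in either group: Tnnt2-207, Tnnt2-209, Tnnt2-205 and Tnnt2-202. Tnnt2-207 and Tnnt2-209 have the same coding sequence of 906 bases and differ outside it. The others differ near the start of the coding sequence, shown here because the rows part at this place. The sequences run from the start codon to 40 bases into the exon that follows the exon of 30 bases at chr1:135843785-135843814 (GRCm38, plus strand), the one included in embryonic and skipped in adult hearts. Capitals mark that exon in Tnnt2-207, and in the other rows the bases at genome positions that are not in the coding sequence of Tnnt2-207.
Tnnt2-207: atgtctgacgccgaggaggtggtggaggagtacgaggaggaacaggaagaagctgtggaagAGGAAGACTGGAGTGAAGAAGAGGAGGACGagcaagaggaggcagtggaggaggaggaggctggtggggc
Tnnt2-205: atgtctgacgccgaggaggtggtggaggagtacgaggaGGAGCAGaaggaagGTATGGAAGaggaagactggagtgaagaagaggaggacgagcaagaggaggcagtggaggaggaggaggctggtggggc
Tnnt2-202: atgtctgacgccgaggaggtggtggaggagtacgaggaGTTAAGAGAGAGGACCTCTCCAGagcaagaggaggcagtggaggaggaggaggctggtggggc
Tnnt2-205 keeps the 30-base exon, and just before it takes 16 bases from genome positions that are not in Tnnt2-207. This counts positions and not differing letters, most of which are alike in the 2 rows. Tnnt2-202 lacks that exon and the short exons between it and the first coding exon, 53 bases in all, has 23 other bases in their place, and carries a further exon of 9 bases downstream (chr1:135850379-135850387), shown in capitals between 40 coding bases on either side.
Tnnt2-202: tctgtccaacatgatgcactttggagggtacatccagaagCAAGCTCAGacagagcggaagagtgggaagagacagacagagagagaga

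Tnnt2-207 was 885, 766 and 877 FPKM in controls and 501, 0 and 447 FPKM in mutants. It was the leading row in 5 libraries and is listed at 0 in mutant replicate 2, the library in which the gene's sum was 667 FPKM. Tnnt2-205 was between 11.5 and 15.1 FPKM in controls, 5.33 and 4.71 FPKM in mutant replicates 1 and 3, and 362 FPKM in mutant replicate 2. Tnnt2-202 showed the same split, at 17.1 to 19.0 FPKM in controls, 8.94 and 7.78 FPKM in mutant replicates 1 and 3 and 226 FPKM in mutant replicate 2. Both minor rows were thus lower in mutant replicates 1 and 3 than in any control and many times higher in mutant replicate 2. Tnnt2-209 was 57.1, 108 and 50 FPKM in controls and 69.9, 34.7 and 206 FPKM in mutants. Its groups overlapped and its highest value was that of mutant replicate 3.

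Rows without the 30-base exon made up 4.29%, 4.12% and 2.76% of Tnnt2 in controls, 3.11% and 1.64% in mutant replicates 1 and 3 and 40.4% in mutant replicate 2. Apart from that library the share was at most 4.29% in either group. The sum of Tnnt2-207, Tnnt2-205 and Tnnt2-202 was 919, 796 and 909 FPKM in controls and 515, 587 and 460 FPKM in mutants, and the groups did not overlap. The log2 fold change of Tnnt2-207 alone was -3.79 (standard error 2.41, adjusted p = 0.613 from limma over 20370 transcript rows), and without mutant replicate 2, where it is at 0, it was -0.83 (adjusted p = 0.179 from limma). That of Tnnt2-205 was 0.69 over all libraries and -1.28 without mutant replicate 2, and that of Tnnt2-202 was 0.49 and -1.05. A row of this table is an estimate shared out among rows that hold most of their bases in common, and whether mutant replicate 2 differed in splicing or in this sharing out was not tested.

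**Figure D2:**
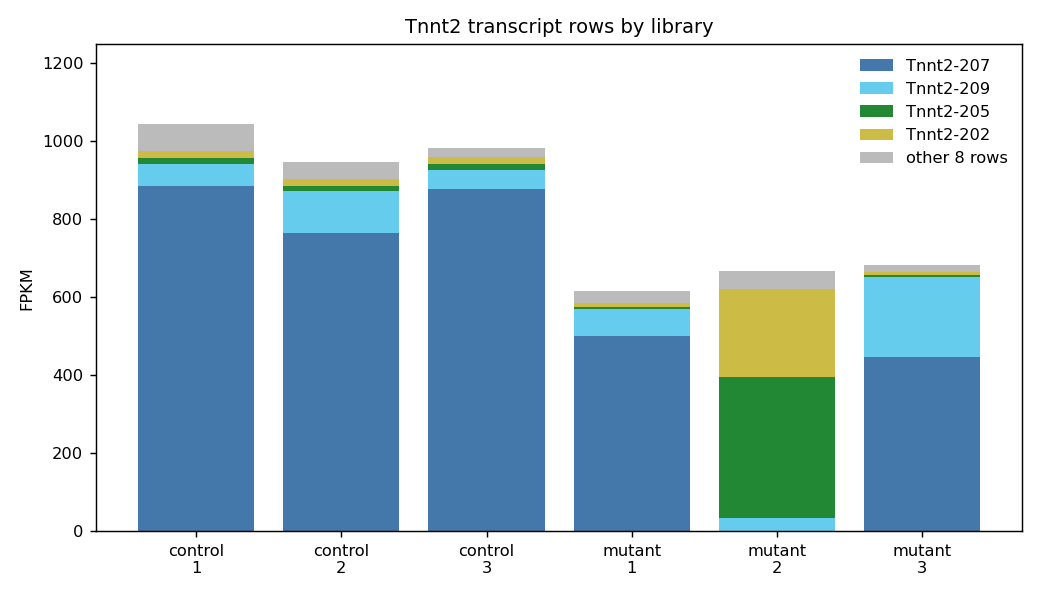
FPKM of the Tnnt2 transcript rows stacked for each library, with the height of a bar giving the gene's sum. The bars of the 3 mutant libraries reach 617, 667 and 683 FPKM, all below the controls, while in mutant replicate 2 Tnnt2-205 (362 FPKM) and Tnnt2-202 (226 FPKM) take the place that Tnnt2-207 holds in the other 5 libraries.

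Both troponin I genes were lower in mutant hearts, the slow skeletal form by more on average and with a wide spread. Tnni1 (chr1:135779434-135810989, plus strand, the same chromosome as Tnnt2) was 515, 489 and 471 FPKM in controls and 289, 305 and 468 FPKM in mutants. Mutant replicates 1 and 2 were far below the controls, and mutant replicate 3 fell short of the lowest control by a small margin. The log2 fold change was -0.51 (standard error 0.18, adjusted p = 0.253 from limma). Without mutant replicate 3 it was -0.72 and the adjusted p 0.0164, where the 17 alternatives spanned 0.0164 to 0.568. No other adjusted p of the 10 genes was under 0.05 under any of them. In the fit without mutant replicate 3, 261 of 13167 genes had an adjusted p under 0.05, 134 of them lower, against 11 of 13262 over all libraries. In 12 of the 17 alternatives the unadjusted p from limma was under 0.05. It exceeded that without control replicate 1 (0.0584), mutant replicate 1 (0.0799) or mutant replicate 2 (0.0693), with the most abundant row alone (0.0876), and with scaling to the cardiomyocyte markers, where the log2 fold change was -0.21 (limma unadjusted p = 0.248).

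Tnni1 had 7 rows, of which 4 share the full coding sequence of 561 bases. The sum of those 4 was 371, 349 and 292 FPKM in controls and 164, 185 and 363 FPKM in mutants, so mutant replicate 3 lay within the controls. Tnni1-201, whose annotated coding sequence of 542 bases is incomplete, was 144, 140 and 179 FPKM in controls and 125, 121 and 105 FPKM in mutants. Here mutant replicate 3 was the lowest library, and the groups did not overlap (log2 fold change -0.39, unadjusted p = 0.0189 and adjusted p = 0.426 from limma). The 2 leading full-length rows were Tnni1-207, at 250 to 308 FPKM in controls and 132, 164 and 287 FPKM in mutants, and Tnni1-205, at 25.7 to 85.2 FPKM in controls and 28.2, 17.1 and 60.4 FPKM in mutants. Both overlapped between the groups.

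Tnni3 (chr7:4518305-4524229, minus strand) was 329, 323 and 350 FPKM in controls and 275, 303 and 291 FPKM in mutants. All mutant libraries lay below the controls, by a small step. Its log2 fold change was -0.21 (standard error 0.09, unadjusted p = 0.0518 and adjusted p = 0.337 from limma). Scaled to the cardiomyocyte markers it was 0.094 (limma unadjusted p = 0.503). The row Tnni3-201 held 95.8% of the gene in controls and 97.7% in mutants. Tnni3 overlaps Dnaaf3 on the same strand, and reads of the overlap cannot be assigned to 1 of them by strand. Cardiac troponin I was thus below the slow skeletal form in all control libraries, with 0.639, 0.661 and 0.743 FPKM of Tnni3 per FPKM of Tnni1. In mutants the ratio was 0.952, 0.992 and 0.621. Mutant replicates 1 and 2 were close to parity and mutant replicate 3 was below every control, so the groups overlapped (difference in log2 ratio 0.30, exact permutation p = 0.4). The difference was 0.18 without mutant replicate 2 and 0.52 without mutant replicate 3.

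Tnnc1 (chr14:31208312-31211729, plus strand, within Nisch on the opposite strand) was 806, 799 and 902 FPKM in controls and 610, 698 and 730 FPKM in mutants. The groups did not overlap. Its log2 fold change was -0.30 (standard error 0.12, unadjusted p = 0.0338 and adjusted p = 0.295 from limma). The unadjusted p from limma was under 0.05 in 10 of the 17 alternatives. It was above that without control replicate 2 (0.0531), control replicate 3 (0.118) or mutant replicate 1 (0.135), without a filter on low values (0.052), with median-of-ratios scaling (0.0678) and with the level of red blood cell genes as a covariate (0.128). With scaling to the cardiomyocyte markers the log2 fold change was 0.0010 (limma unadjusted p = 0.995). The gene has a single row of 483 coding bases. Set against its partner in the complex, Tnnt2 was 1.3, 1.19 and 1.09 FPKM per FPKM of Tnnc1 in controls and 1.01, 0.956 and 0.936 in mutants. This was the only one of 6 ratios examined whose groups did not overlap. Its difference in log2 ratio was -0.30, with an exact permutation p of 0.1, the smallest that 3 against 3 libraries can give, and an adjusted p of 0.48 over the 6 ratios.

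The tropomyosin genes differed in how their rows were arranged. Tpm1 and Tpm2 each end in alternative last coding exons, of which 1 is used in striated and 1 in smooth muscle and many other cells, and some rows of Tpm1 have neither. Here they are shown for the leading row of each kind, as the last 100 coding bases with the last coding exon in capitals. In Tpm2 the leading skeletal-type row was lower without overlap and the smooth-type row overlapped between the groups. The 2 kinds of end were not tested against each other. All are on the minus strand, 5′ to 3′ in the sense of the transcript.
Tpm1-205, striated-type end: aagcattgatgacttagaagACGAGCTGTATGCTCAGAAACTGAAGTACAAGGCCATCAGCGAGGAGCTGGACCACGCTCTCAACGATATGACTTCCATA
Tpm1-216, smooth-type end: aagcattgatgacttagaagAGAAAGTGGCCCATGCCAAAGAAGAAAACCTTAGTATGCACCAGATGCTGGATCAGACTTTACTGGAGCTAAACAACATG
Tpm2-202, skeletal-type end: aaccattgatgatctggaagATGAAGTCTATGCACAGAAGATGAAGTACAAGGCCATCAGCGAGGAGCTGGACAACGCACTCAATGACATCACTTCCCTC
Tpm2-203, smooth-type end: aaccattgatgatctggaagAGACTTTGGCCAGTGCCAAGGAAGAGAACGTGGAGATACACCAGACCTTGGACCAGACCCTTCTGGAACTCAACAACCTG
These exons lie at chr9:67029664-67029742 and chr9:67023362-67023441 in Tpm1 and at chr4:43515924-43516003 and chr4:43514782-43514861 in Tpm2 (GRCm38, coding part). The single last coding base of Tpm1-205 is in a further exon.

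Tpm1 (chr9:67022590-67049406) was 845, 895 and 984 FPKM in controls and 731, 807 and 859 FPKM in mutants. Mutant replicate 3 lay within the controls. Its log2 fold change was -0.18 (standard error 0.12, adjusted p = 0.503 from limma) and, without mutant replicate 1, -0.12. Scaled to the cardiomyocyte markers it was 0.12 (limma unadjusted p = 0.468). Rows with the striated-type end summed to 684, 714 and 783 FPKM in controls and 557, 610 and 698 FPKM in mutants, which was 80.1% ± 0.736 (SD, n = 3) and 77.7% ± 3.11 (SD, n = 3) of the gene. Rows with the smooth-type end summed to 122, 149 and 165 FPKM in controls and 146, 169 and 133 FPKM in mutants, or 15.9% ± 1.32 (SD, n = 3) and 18.8% ± 2.92 (SD, n = 3). Both classes overlapped between the groups. The 5 rows with any other end summed to 39.1, 31.7 and 36.0 FPKM in controls and 27.8, 27.6 and 27.8 FPKM in mutants. This small class, 3.94% ± 0.595 (SD, n = 3) of the gene in controls and 3.49% ± 0.289 (SD, n = 3) in mutants, was the only one of the 3 without overlap in FPKM. The leading row Tpm1-205 was 567, 580 and 693 FPKM in controls and 464, 523 and 587 FPKM in mutants, with the highest mutant above the lowest controls. Tpm1-201, which ends in the same exon, was 86.0 to 112 FPKM in controls and 86.8, 82.8 and 59.3 FPKM in mutants. Tpm1-216 was 77.4 to 117 FPKM in controls and 74.6, 102 and 73.4 FPKM in mutants.

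Of the 13 Tpm1 rows that passed the filter, 2 had an unadjusted p under 0.05, and both hold less than 5% of the gene and were picked out after their values were seen. Tpm1-202 is listed at 0 in control replicates 1 and 2 and was 7.55 FPKM in control replicate 3, and it was 28.3, 12.0 and 17.2 FPKM in mutants. Every mutant library was above every control (unadjusted p = 0.0108 and adjusted p = 0.395 from limma). Its annotated coding sequence holds both of the alternative second exons of the gene, which are used one at a time in known proteins: exon 2a of smooth muscle (chr9:67048124-67048249) and exon 2b of striated muscle (chr9:67047786-67047911). Together, the 3 rows with exon 2a summed to 28.7, 34.5 and 35.2 FPKM in controls and 53.0, 42.9 and 39.5 FPKM in mutants, higher without overlap. Each of the other rows with exon 2a overlapped between the groups, and so did their sum without Tpm1-202, at 27.7 to 34.5 FPKM in controls and 22.3 to 30.8 FPKM in mutants. Tpm1-207 was lower without overlap, with a log2 fold change of -0.35 (adjusted p = 0.474 from limma).

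Tpm2 (chr4:43514711-43523765) was 52.3, 41.7 and 40.9 FPKM in controls and 35.4, 35.8 and 32.2 FPKM in mutants. The mutant libraries were close together and below all controls, of which replicate 1 was the highest. The log2 fold change was -0.37 (standard error 0.11, unadjusted p = 0.00985 and adjusted p = 0.203 from limma). It was -0.073 when scaled to the cardiomyocyte markers (limma unadjusted p = 0.629), and the unadjusted p was 0.0507 with the red blood cell covariate. Rows with the skeletal-type end summed to 44.8, 32.3 and 33.2 FPKM in controls and 26.1, 23.7 and 24.8 FPKM in mutants, without overlap. Tpm2-202, the larger of them, had a log2 fold change of -0.57 (standard error 0.12, unadjusted p = 0.00356 and adjusted p = 0.348 from limma). The row with the smooth-type end, Tpm2-203, was 7.52, 9.40 and 7.64 FPKM in controls and 9.27, 12.0 and 7.35 FPKM in mutants, with overlapping groups. It made up 14.4%, 22.6% and 18.7% of the gene in controls and 26.2%, 33.7% and 22.8% in mutants, where the lowest mutant was just above the highest control. Tpm2-201, also with the skeletal-type end, was at most 5.34 FPKM in any library. Its groups overlapped (log2 fold change -0.14, limma unadjusted p = 0.635).

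The 3 alpha-actins are encoded by coding sequences of 1131 bases without gaps between them. Actc1 and Acta1 differ at 155 bases (86.3% identical), Actc1 and Acta2 at 197 bases (82.6%) and Acta1 and Acta2 at 165 bases (85.4%). The last 120 coding bases are shown as an example of how close the 3 genes are, with capitals at the bases of Acta1 and Acta2 that differ from Actc1.
Actc1: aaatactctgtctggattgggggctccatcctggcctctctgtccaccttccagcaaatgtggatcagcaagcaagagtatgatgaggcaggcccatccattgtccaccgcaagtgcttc
Acta1: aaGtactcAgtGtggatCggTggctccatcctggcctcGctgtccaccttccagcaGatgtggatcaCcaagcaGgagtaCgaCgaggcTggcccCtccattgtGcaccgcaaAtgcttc
Acta2: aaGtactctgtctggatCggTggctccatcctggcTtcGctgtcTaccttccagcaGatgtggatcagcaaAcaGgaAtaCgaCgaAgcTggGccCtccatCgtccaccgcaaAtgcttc
The longest run of bases that Actc1 shares in place with Acta1 is 29 bases and with Acta2 23 bases, and no window of 50 bases is identical in any pair. Bases outside the coding sequence were not compared. Levels of these genes still rest on how the authors' programs placed similar reads.

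None of the actins was below all controls in mutant replicate 3. Actc1 (chr2:114047282-114053548, minus strand), the main actin of the heart, was 2709, 2603 and 3340 FPKM in controls and 2254, 2677 and 2867 FPKM in mutants. Only mutant replicate 1 was below all controls. The log2 fold change was -0.15 (standard error 0.17, adjusted p = 0.727 from limma), the smallest of the 10 genes. Acta1 (chr8:123891769-123894751, minus strand), the skeletal alpha-actin, was 86.9, 93.5 and 120 FPKM in controls and 64.5, 78.8 and 104 FPKM in mutants. Mutant replicates 1 and 2 were below the controls and mutant replicate 3 between them (log2 fold change -0.29, standard error 0.18, adjusted p = 0.497 from limma). Acta2 (chr19:34241090-34255590, minus strand), the smooth muscle alpha-actin that the early heart also uses, was 414, 436 and 458 FPKM in controls and 273, 340 and 461 FPKM in mutants. Here mutant replicate 3 was the highest of all 6 libraries, and mutant replicates 1 and 2 were the lowest (log2 fold change -0.32, standard error 0.18, adjusted p = 0.438 from limma). Both differences turned on single mutant libraries. Without mutant replicate 3 the log2 fold change was -0.47 for Acta1 (unadjusted p = 0.0163 and adjusted p = 0.204 from limma) and -0.51 for Acta2 (unadjusted p = 0.00422 and adjusted p = 0.112 from limma). Without mutant replicate 1 it was -0.13 for Acta1, -0.14 for Acta2 and -0.05 for Actc1, and without control replicate 3 it was -0.15 for Acta1 and -0.04 for Actc1. Scaled to the cardiomyocyte markers it was 0.15 for Actc1, 0.0091 for Acta1 and -0.015 for Acta2. With the red blood cell covariate that of Actc1 was -0.083. A transcript on the opposite strand overlaps Actc1 (A530058N18Rik) and Acta1 (Gm20388). The libraries keep strand, but whether the authors' counting used it is not stated.

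Relative to Actc1, skeletal actin stood at 0.0321, 0.0359 and 0.0359 in controls and 0.0286, 0.0294 and 0.0363 in mutants. Smooth muscle actin stood at 0.153, 0.167 and 0.137 in controls and 0.121, 0.127 and 0.161 in mutants. In both ratios mutant replicates 1 and 2 were below all controls and mutant replicate 3 was not. The differences in log2 ratio were -0.14 (exact permutation p = 0.4) and -0.17 (exact permutation p = 0.3). The first was -0.079 without mutant replicate 1 and -0.25 without mutant replicate 3. The difference for smooth muscle actin was -0.098 without control replicate 2, -0.089 without mutant replicate 1 and -0.29 without mutant replicate 3. Other smooth muscle markers did not move as one: Tagln, Cnn1 and Smtn were lower at an unadjusted p under 0.05 (log2 fold changes -0.25, -0.28 and -0.30, adjusted p = 0.294, 0.263 and 0.244 from limma), where 9.43% of all genes were lower, Mylk was 3.65 to 4.26 FPKM in controls and 5.55, 4.91 and 2.81 FPKM in mutants, and the smooth muscle myosin Myh11 was 0.685 to 1.34 FPKM in controls and 1.76, 2.91 and 0.694 FPKM in mutants.

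Lmod2, which nucleates actin and lengthens the thin filament at its pointed end, lies on chromosome 6 (chr6:24597762-24605414, plus strand) and has 1 row. It was 37.3, 36.1 and 42.1 FPKM in controls and 28.8, 31.8 and 28.5 FPKM in mutants. All mutant libraries were below all controls, and mutant replicate 3 was the lowest. The log2 fold change was -0.36 (standard error 0.09, unadjusted p = 0.00385 and adjusted p = 0.161 from limma). Scaled to the cardiomyocyte markers it was -0.069 (limma unadjusted p = 0.602). Per FPKM of Actc1, Lmod2 was 0.0138, 0.0139 and 0.0126 in controls and 0.0128, 0.0119 and 0.00994 in mutants, with mutant replicate 1 inside the control range (difference in log2 ratio -0.22, exact permutation p = 0.2, and -0.12 without mutant replicate 3). The ratio of the 2 tropomyosins, Tpm2 to Tpm1, overlapped as well, at 0.0415 to 0.0619 in controls and 0.0374 to 0.0484 in mutants (difference in log2 ratio -0.19, exact permutation p = 0.5). Without control replicate 1 that difference was -0.027, without control replicate 3 it was -0.31, and without mutant replicate 3 it was -0.089.

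**Figure D3:**
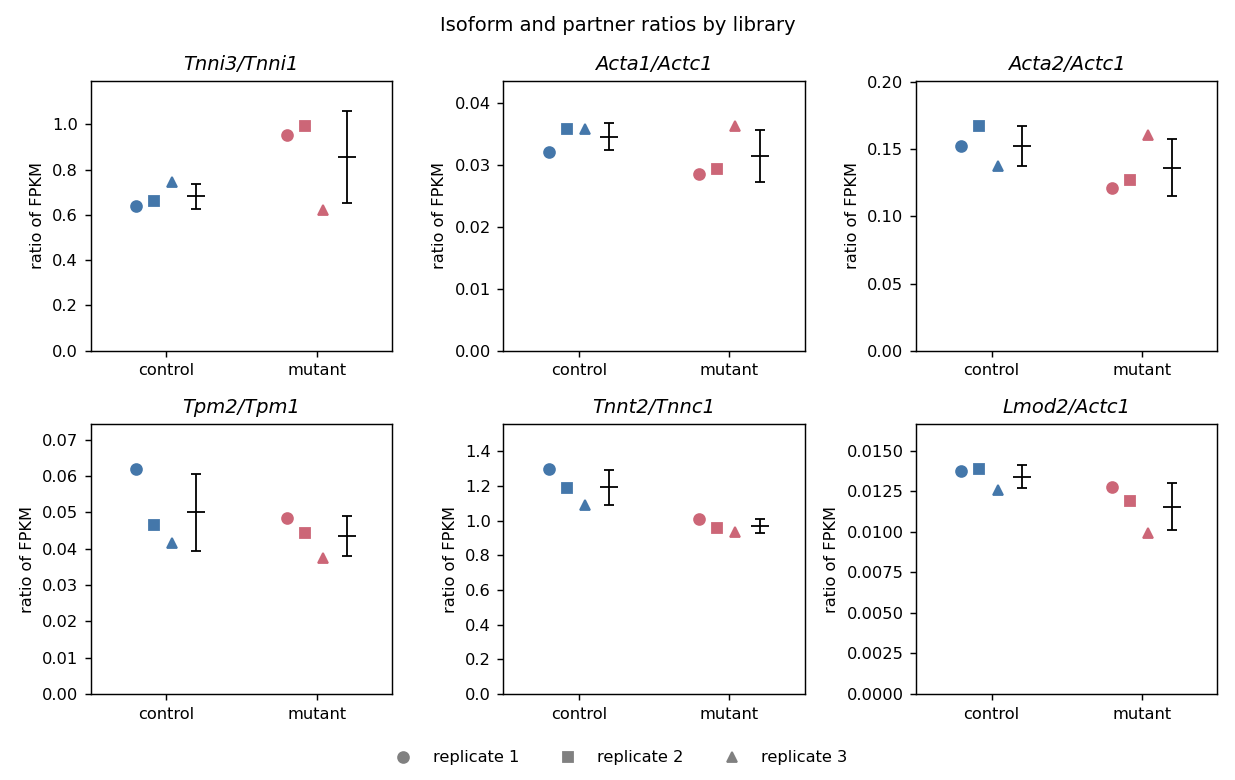
Ratios of summed FPKM within each library for the 6 pairs compared, 3 control (blue) and 3 mutant (red) libraries, with the group mean and SD in black. The groups are apart for Tnnt2/Tnnc1 (1.09 to 1.3 in controls, 0.936 to 1.01 in mutants), and overlap in the other 5, where mutant replicate 3 (triangles) often lies away from the other mutants.

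The mutant libraries differed from each other in which of the 10 genes were low. In mutant replicate 1, all 10 were below all 3 controls, as were 38.1% of all genes, and the median deviation from the control mean was -0.43 on log2(FPKM + 1). In mutant replicate 2, 9 were below all controls (26.3% of all genes), with a median of -0.29 and Actc1 as the exception. In mutant replicate 3, 6 were (40.3% of all genes), with a median of -0.13. The 4 that were not are Tpm1, Actc1, Acta1 and Acta2, and Tnni1 was below by a small margin, at 468 FPKM against 471 FPKM in the lowest control. Tnnt2 (-0.54), Tpm2 (-0.46) and Lmod2 (-0.42) were as low in mutant replicate 3 as in the other mutants or nearly so. Mutant replicate 3 is the library with Mrps5 at the control level, and mutant replicates 1 and 3 are the ones with the high share of red blood cell markers. The part of either in these values was not tested.

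**Figure D4:**
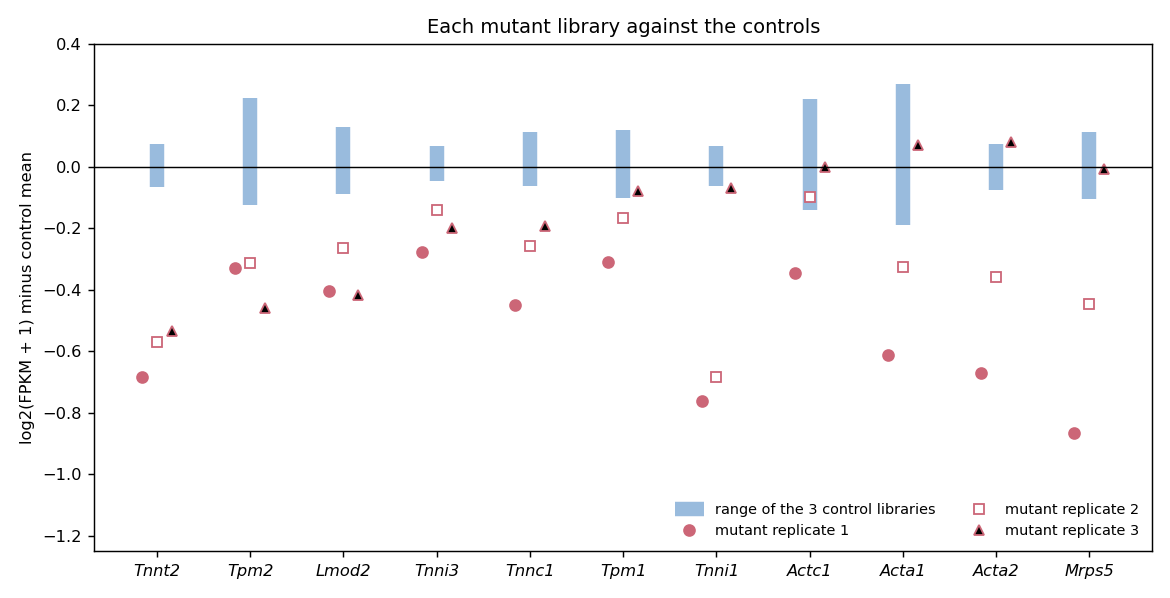
Deviation of each mutant library from the control mean on log2(FPKM + 1), with the range of the 3 control libraries as a blue bar, for the 10 genes in order of mutant replicate 3 and for Mrps5. Mutant replicate 3 (black triangles) runs from -0.54 for Tnnt2 to 0.08 for Acta2, while mutant replicate 1 (filled circles) is below every control bar.

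Other genes of the thin filament were examined in a list of 29, ordered by role, and 25 of these had at least 1 FPKM in at least 3 libraries. Of these, 18 were below 0 and 7 above, with a median of -0.16, and 4 were lower and none higher at an unadjusted p under 0.05, with none at an adjusted p under 0.05 from limma. Of all genes tested, 55% were below 0, 9.43% were lower and 5.58% higher at an unadjusted p under 0.05, and the median was -0.02. Without mutant replicate 3 the number at an unadjusted p under 0.05 was 10, 9 lower (8.89% of all genes in that fit) and 1 higher (6.39%), and without mutant replicate 1 it was 2, both lower (7.34%). The slow skeletal troponin T, Tnnt1, had the largest difference. It was 73.9, 75.9 and 83.9 FPKM in controls and 26.4, 28.2 and 56.0 FPKM in mutants, with mutant replicate 3 between the others and the controls. Its log2 fold change was -1.14 (standard error 0.25, adjusted p = 0.139 from limma), and without mutant replicate 3 the adjusted p was 0.000386, where the 17 alternatives spanned 0.000386 to 0.421. In the fit without that library 261 of 13167 genes had an adjusted p under 0.05. The other skeletal troponins tested, Tnnt3 and Tnni2, were at 4.33 and 12.0 FPKM in mutants against 5.79 and 15.8 FPKM in controls, with overlapping groups.

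Nrap, a nebulin family protein of assembling myofibrils, was 10.4, 7.03 and 10.5 FPKM in controls and 5.74, 5.12 and 5.99 FPKM in mutants. All mutants were below all controls (log2 fold change -0.62, adjusted p = 0.154 from limma). Fhod3, a formin that assembles cardiac actin, was 23.4, 19.4 and 21.4 FPKM in controls and 13.6, 16.4 and 19.0 FPKM in mutants, also without overlap (log2 fold change -0.38, adjusted p = 0.239 from limma). Xirp1 was 30.9, 28.9 and 34.0 FPKM in controls and 21.8, 24.7 and 29.5 FPKM in mutants, where mutant replicate 3 was above 1 control (log2 fold change -0.30, adjusted p = 0.297 from limma). In the leave-one-out fits the unadjusted p of Nrap stayed under 0.05, that of Fhod3 exceeded it without control replicate 1 or mutant replicate 1, and that of Xirp1 without control replicate 1 or 3 or mutant replicate 1 or 2. With libraries scaled to the cardiomyocyte markers the log2 fold change of Tnnt1 was -0.84 (unadjusted p = 0.00136 and adjusted p = 0.0593 from limma). On the same scale it was -0.36 for Nrap (limma unadjusted p = 0.0295), -0.092 for Fhod3 and -0.012 for Xirp1. The non-muscle actins stood on the other side of 0. Actb had a mean of 796 ± 75.1 FPKM (SD, n = 3) in controls and 925 ± 69.5 FPKM (SD, n = 3) in mutants, and Actg1 of 370 ± 52.8 and 424 ± 67.8 FPKM (SD, n = 3 each), with overlapping groups and adjusted p of 0.440 and 0.590 from limma. The tropomyosins Tpm3 and Tpm4 were within 0.03 of 0 on the log2 scale, and the 8 capping and length genes tested ranged from -0.19 to 0.05.

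**Figure D5:**
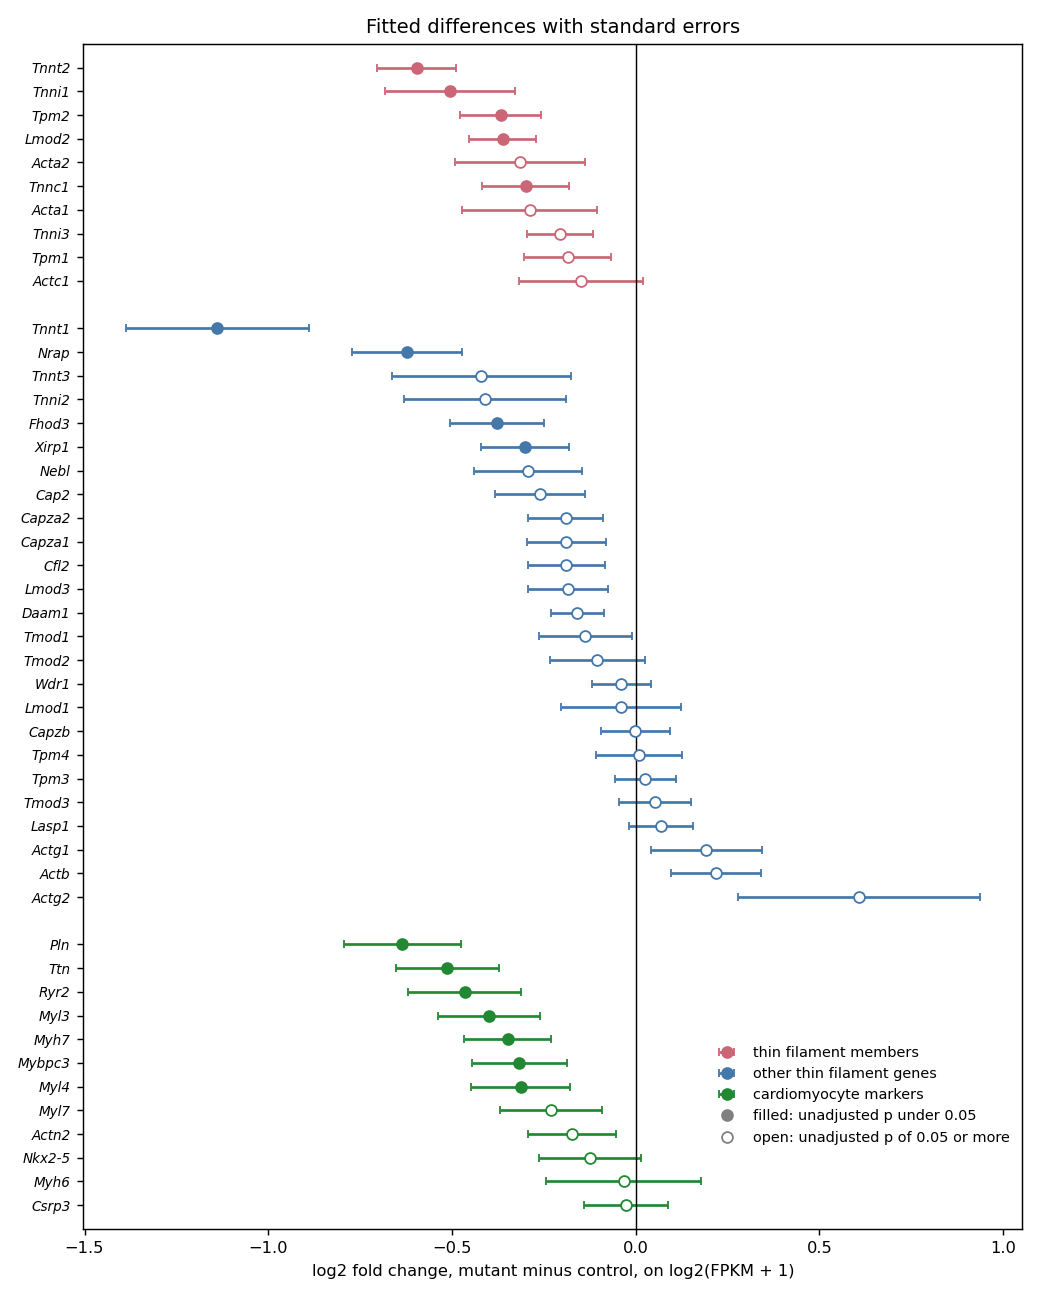
Log2 fold changes of mutant against control hearts on log2(FPKM + 1) with standard errors from limma, for the 10 thin filament genes (red), 25 other thin filament genes (blue) and 12 cardiomyocyte markers (green). Filled points have an unadjusted p under 0.05 and none has an adjusted p under 0.05. All 10 red and all 12 green points lie below 0, and the non-muscle actins and Actg2 lie above it.

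Several genes of this group are known targets of the serum response factor (Srf), which binds the CArG box and works with the coactivators Myocd, Mkl1 and Mkl2. Srf itself was 19.4 ± 0.102 FPKM (SD, n = 3) in controls and 19.0 ± 1.15 FPKM (SD, n = 3) in mutants. Myocd, the coactivator of heart and smooth muscle, was 28.8, 24.1 and 27.7 FPKM in controls and 17.0, 18.7 and 21.1 FPKM in mutants. All mutants were below all controls (log2 fold change -0.49, standard error 0.11, adjusted p = 0.139 from limma), and without mutant replicate 3 the adjusted p was 0.0458 (0.0458 to 0.451 over the 17 alternatives). In the fit without that library 261 of 13167 genes had an adjusted p under 0.05. Mkl2 was 13.0, 9.69 and 12.7 FPKM in controls and 8.38, 9.99 and 8.47 FPKM in mutants, with mutant replicate 2 above 1 control (log2 fold change -0.36, adjusted p = 0.260 from limma). The log2 fold change of Mkl2 was -0.23 with the level of red blood cell markers as a covariate, -0.075 with its most abundant row alone and -0.082 with libraries scaled to the cardiomyocyte markers, and that of Myocd on the last scale was -0.20. In the leave-one-out fits the unadjusted p of Mkl2 exceeded 0.05 in 4 of 6. Mkl1 was 5.83 to 7.73 FPKM in controls and 6.31 to 7.39 FPKM in mutants.

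The promoter windows of the actins and of Tnnt2 are printed because Srf sites near the starts of the actin genes are textbook examples and because Tnnt2 had the largest difference of the 10 genes. Each is the 250 bases before the start of the gene in RefSeq (GRCm38.p6), read in the direction of the gene. Capitals mark CArG boxes in Actc1 and Acta1 and, in Acta2 and Tnnt2, where no full CArG box was found, those with 1 base off. The Tnnt2 window is the first of 2 listed for the gene.
Actc1, chr2:114052876-114053125, minus strand: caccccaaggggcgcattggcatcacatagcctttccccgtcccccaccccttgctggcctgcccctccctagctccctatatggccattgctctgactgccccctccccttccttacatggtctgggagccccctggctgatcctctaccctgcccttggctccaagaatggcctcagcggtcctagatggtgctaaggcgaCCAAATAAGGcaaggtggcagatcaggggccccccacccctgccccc
Acta1, chr8:123894776-123895025, minus strand: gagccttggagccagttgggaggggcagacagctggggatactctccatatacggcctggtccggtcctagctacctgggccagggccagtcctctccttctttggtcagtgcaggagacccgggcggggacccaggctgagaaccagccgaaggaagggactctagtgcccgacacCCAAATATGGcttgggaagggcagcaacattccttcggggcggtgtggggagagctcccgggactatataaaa
Acta2, chr19:34255374-34255623, minus strand: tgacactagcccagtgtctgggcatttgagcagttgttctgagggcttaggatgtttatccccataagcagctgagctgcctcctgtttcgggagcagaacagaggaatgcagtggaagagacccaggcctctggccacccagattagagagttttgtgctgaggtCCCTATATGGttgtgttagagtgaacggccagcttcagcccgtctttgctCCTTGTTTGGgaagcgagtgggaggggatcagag
Tnnt2, chr1:135836084-135836333, plus strand: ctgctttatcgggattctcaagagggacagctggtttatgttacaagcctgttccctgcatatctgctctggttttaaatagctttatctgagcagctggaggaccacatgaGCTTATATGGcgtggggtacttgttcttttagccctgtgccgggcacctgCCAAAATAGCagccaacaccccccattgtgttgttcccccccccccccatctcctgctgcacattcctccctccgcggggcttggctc
A full CArG box was present in 1.47% of 32851 such windows of the genome and in those of 2 of the 10 genes, Actc1, 47 bases before the start, and Acta1, 73 bases before it. With up to 1 base off, which includes the full boxes, a CArG box was in 18.6% of all windows and in those of 6 of the genes (Actc1, Acta1, Acta2, Lmod2, Tnnt2 and Tpm1). The CArG box reads alike on both strands. CATTCC, a core of the TEAD binding site, was found on either strand in 12.6% of all windows and in those of 5 genes (Acta1, Acta2, Tnnc1, Tnnt2 and Tpm1), and TATAAA in 12.4% of all windows and in that of Acta1. A match of letters does not show that a factor binds there.

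The genes whose profile over the 6 libraries was most like that of Tnnt2 were sought among 9031 other genes with a mean of at least 5 FPKM, by the root mean square distance of log2(FPKM + 1) after centring. The nearest were Ptges3l (distance 0.063), Cox7a1 (0.068), Map3k5 (0.072), Schip1 (0.078) and Myocd (0.084). Cox7a1, a muscle subunit of cytochrome c oxidase, was 83.1, 82.8 and 86.0 FPKM in controls and 52.3, 53.4 and 62.0 FPKM in mutants. That its mutant replicate 3 was far below every control, like that of Tnnt2, follows from the search, which ranked genes by these same values. Schip1 was 22.1 to 22.7 FPKM in controls and 15.6 to 16.4 FPKM in mutants. Of the other 9 thin filament genes Lmod2 (0.15), Tpm2 (0.16) and Tnnc1 (0.17) were nearest to Tnnt2 and Acta1 (0.27) was farthest.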

How the data were processed

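Ribosomal RNA-depleted, strand-specific libraries were made from whole embryonic hearts, 3 control and 3 mutant. The authors deposited 1 table of FPKM values for 60776 transcript rows. The submitters' processing notes name HISAT2, Bowtie2 2.2.8, StringTie 1.3.1, Cuffdiff 2.1.1 and the build mm9, without their roles. All 50 member rows carry Ensembl transcript identifiers found in GENCODE M21 (GRCm38), which gave the names, coordinates and coding sequences printed here. FPKM of the rows of a gene were summed, 1 was added, and log2 values were compared with limma 3.58.1 (R 4.3.3, empirical Bayes with trend, Benjamini-Hochberg) over 13262 genes with at least 1 FPKM in at least 3 libraries, and likewise over 20370 rows. Ratios were compared by exact two-sided permutation tests (scipy 1.17.1). With 1 added, changes of low genes come out too small. Alternatives changed the pseudocount, filter, scaling, covariates, block, trend, choice of rows and libraries. The scripts were tested on simulated data.

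The members, ratios and gene lists were chosen with earlier results of these data known. Text names every member, each filtered row with at least 5% of its gene, other thin filament and Srf genes with an unadjusted p under 0.05, Mrps5 and the 5 genes most like Tnnt2. The paper calls the replicates biological, and p-values measure the spread between these pools. Amino acid sequences were not used here.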

Additional observations from a re-analysis of the deposited data

How the results depend on the processing

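Every one of the 10 genes stayed below 0 under the pseudocount of 0.1, both other filters, median-of-ratios scaling, scaling without red blood cell and mitochondrial DNA genes, the red blood cell covariate, the replicate block, no trend, the most abundant row alone, protein-coding rows alone and all 6 leave-one-out fits. Scaling to the cardiomyocyte markers reversed Tnni3 (0.094), Tnnc1 (0.0010), Tpm1 (0.12), Actc1 (0.15) and Acta1 (0.0091). It left 5 genes below 0 and none at an unadjusted p under 0.05, with 188 genes at an adjusted and 4329 at an unadjusted p under 0.05 over all genes and 9 of the other thin filament genes (2 lower and 7 higher, against 1.39% and 31.2% of all genes). The number of the 10 genes at an unadjusted p under 0.05 was 3 with the red blood cell covariate (5.27% of all genes lower) and 3 with the most abundant row alone (7.22%), and 3 to 7 over the leave-one-out fits. Those at an adjusted p numbered 0 to 1, and the 1 was Tnni1 without mutant replicate 3. In that fit 261 of 13167 genes had an adjusted p under 0.05, against 11 of 13262 in the analysis as reported. Other thin filament genes at an unadjusted p under 0.05 numbered 8 with scaling without red blood cell and mitochondrial DNA genes (all lower, as were 11.4% of all genes), 8 with the replicate block (all lower, 11% of all genes) and 2 to 10 over the leave-one-out fits.

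Genes at an adjusted p under 0.05, 11 in all, numbered 5 without a filter, 6 with the red blood cell covariate, 6 without trend, 4 with the replicate block and 4 with the most abundant row, and 3 to 261 over the leave-one-out fits, with 123 without mutant replicate 2 and 261 without mutant replicate 3. Those at an unadjusted p numbered 1314 at a mean of at least 5 FPKM and 1177 to 2173 leave-one-out. In the analysis as reported they numbered 1991, and 62.8% of these were lower, against 50.1% with median-of-ratios scaling, 73.6% without red blood cell and mitochondrial DNA genes, 47.6% with the covariate and 4.25% with cardiomyocyte scaling. Transcript rows at an adjusted p numbered 7, and 3, 0 and 1 with the pseudocount of 0.1, the mean of at least 5 FPKM and the block, and 1 to 30 leave-one-out. At an unadjusted p they numbered 1103 at a mean of at least 5 FPKM and 1312 to 2046 leave-one-out, and member rows 4 to 11, where 37 were tested in the analysis as reported. These ranges are not paired by fit, so they do not set the member rows against all rows. Single rows were followed over the leave-one-out fits only for the 19 filtered member rows with at least 5% of their gene. Of these, 5 moved across 0: Tnni1-205 (-0.95 to 0.00078) and Tpm2-201 (-0.41 to 0.12) without control replicate 1, Tnnt2-205 (-1.28 to 1.71) and Tnnt2-202 (-1.05 to 1.3) without mutant replicate 2, and Tnnt2-209 (-0.45 to 0.82) without mutant replicate 3. The causes were not tested, other than that a fit without a library has fewer samples. All 6 ratios kept their sign, with leave-one-out differences in log2 ratio of 0.18 to 0.52 for Tnni3/Tnni1, -0.25 to -0.079 for Acta1/Actc1, -0.29 to -0.089 for Acta2/Actc1, -0.31 to -0.027 for Tpm2/Tpm1, -0.36 to -0.23 for Tnnt2/Tnnc1 and -0.30 to -0.12 for Lmod2/Actc1, and Tnnt2/Tnnc1 could not be computed from the most abundant row, which is at 0 in mutant replicate 2. Deviations of same-numbered libraries correlated at 0.22, 0.11 and 0.089, the last under the 0.1 asked of every pair, and the labels give the numbers no shared litter or day, so the numbers were not taken as pairs. Every library nonetheless correlated best with its own number, a hint from the data and not from the design. The replicate block left no member at an adjusted p under 0.05 and 6 at an unadjusted one (11% of all genes lower), the sixth being Acta1 (limma unadjusted p = 0.0104, adjusted p = 0.179). Depth in reads is unknown, and 3 pools a group limit the precision.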
